A study of Mus musculus with 14 samples.

Results

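The comparison was between newborn brain of mice that lack normal Celf1 expression and newborn brain of wild-type mice. It used the 4 arrays labelled as knockout (KO) brain and the 4 labelled as wild-type (WT) brain, 8 of the 14 arrays of the study. The other 6 arrays held skeletal muscle RNA and entered only the choice of 1 probe per gene. The KO mice carry a trap vector ahead of the start codon of Cugbp1, the older name of Celf1, and were derived from BayGenomics embryonic stem (ES) cells injected into C57BL6 mice. The WT mice were C57BL6, and KO and WT brains were both collected at 1 day of age from mice with no treatment. A gene trap interrupts a transcript and need not remove it, and the labels do not give the ES cell strain, the backcrossing, the litter or the sex of the mice. The labels number the samples but do not say that each is a separate mouse, so p-values measure the spread between these samples.

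CUGBP1, the product of Celf1, is an RNA-binding protein of GU-rich stretches in pre-mRNA and mRNA, where it acts in splicing, deadenylation and translation. It is best known from myotonic dystrophy, in which its raised activity shifts splicing in muscle, heart and brain. The brain also expresses other CELF proteins, several of them mainly in neurons. An array probe reads the summed level of the transcripts that hold its target, so splicing changes are outside what was measured here.

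Each value below is a scaled intensity, the deposited Cy3 fluorescence of a probe multiplied so that the 75th percentile of the named probes was 1162 on every array (987 to 1398 before scaling). On this scale the dimmest probe of an array lay at 2.44 to 3.57. Log2 fold changes are KO minus WT with the standard error (SE) of the limma fit, and the adjusted p is that of limma after Benjamini-Hochberg adjustment over 21893 genes. Levels of all genes correlated at 0.986 to 0.994 between brain arrays. All 5 neuronal markers (Tubb3, Map2, Snap25, Syt1 and Stmn2) lay above the 75th percentile on all 8 arrays, at 4452 to 66301. The 4 skeletal muscle markers lay below it on all 8 arrays, at 3.39 to 979. Of the blood markers, 2 of 3 lay above it on all arrays, so the samples held brain tissue with blood. Xist, made by the inactive X chromosome of females, was high on 3 of 4 KO and 2 of 4 WT arrays.

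An adjusted p under 0.05 was reached by 5 genes. Celf1 and Htr5a were lower, and Serinc4, Zbtb7c and Olfr874 were higher in KO brain. These 5 genes made up 0.0228% of the genes tested, 0.0137% higher and 0.00914% lower. A second, looser description is used throughout, namely whether all 4 KO arrays lay on 1 side of all 4 WT arrays. This held for 308 higher genes, 1.41% of those with 8 values, and for 535 lower genes, 2.45%. Such genes are called separated by genotype.

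Celf1 had scaled intensities of 1879, 1792, 1726 and 1656 in KO brain, against 5712, 5786, 5643 and 5910 in WT brain. The KO arrays lay far below the WT arrays, and the spread within each genotype was small beside the gap. Celf1 fell by 1.71 ± 0.082 on the log2 scale (n = 4 arrays each, limma adjusted p = 0.000534), to 30.6% of the WT mean. The remaining probes of Celf1 gave 25.6% and 34.5% of WT, so a signal remained with all 3 probes. Where these probes lie relative to the trap was not settled here. The call held in 8 of 8 fits that left out 1 array (limma adjusted p = 0.00251 to 0.00862). It was lost without WT arrays 3 and 4 together (limma adjusted p = 0.0800, log2 fold change -1.71).

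Serinc4 belongs to the serine incorporator family, membrane proteins named for a role in carrying serine into membrane lipids, of which SERINC5 and SERINC3 restrict retroviral particles in human cells. Serinc4 read 241, 229, 265 and 237 in KO brain, against 109, 126, 114 and 129 in WT brain. All KO arrays were about double the WT arrays, and the groups did not overlap. Serinc4 rose by 1.02 ± 0.096 on the log2 scale (n = 4 arrays each, limma adjusted p = 0.0265), a 2.03-fold higher level. Among the fits without 1 array it passed in 1 of 8, the one without WT array 2, with adjusted p of 0.0432 to 0.168 in limma. The call was also lost without scaling between arrays and with the array number as a replicate block (limma adjusted p = 0.240 and 0.542). It held with 50 added to every intensity and with quantile normalization (limma adjusted p = 0.0138 and 0.0168). The other family members had values nearer 0, and their differences from Serinc4 were not tested. Serinc1 stood at a log2 fold change of -0.11 ± 0.097, Serinc2 at 0.15 ± 0.13, Serinc3 at -0.22 ± 0.21 and Serinc5 at -0.22 ± 0.21, and for each of these the KO and WT arrays overlapped.

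Zbtb7c encodes a BTB zinc finger protein that acts as a transcriptional regulator. Zbtb7c read 36.5, 30.1, 30.4 and 27.5 in KO brain, against 14.4, 10.8, 11.6 and 13.7 in WT brain. The groups did not overlap, and Zbtb7c rose by 1.30 ± 0.13 on the log2 scale (n = 4 arrays each, limma adjusted p = 0.0399). It passed in 0 of 8 fits that left out 1 array (limma adjusted p = 0.0563 to 0.212). With 50 added to every intensity its log2 fold change was 0.36 (limma adjusted p = 0.545). The call was also lost with quantile normalization, with a trended and robust variance and without scaling between arrays (limma adjusted p = 0.0763, 0.153 and 0.0898).

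Htr5a, a serotonin receptor that couples to inhibitory G proteins, read 3.11, 3.65, 3.79 and 3.39 in KO brain, against 10.3, 8.38, 12.9 and 10.7 in WT brain. The KO values lay among the dimmest probes of the arrays, so Htr5a had a signal above that floor in WT only. It fell by 1.59 ± 0.14 on the log2 scale (n = 4 arrays each, limma adjusted p = 0.0243), and the size of this change is limited by the floor. With 50 added to every intensity the log2 fold change was -0.19 (limma adjusted p = 0.638). Leaving out 1 array, it passed in 1 of 8 fits, the one without WT array 2 (limma adjusted p = 0.0117 to 0.128). The call was also lost with quantile normalization (limma adjusted p = 0.0515). It held with a trended and robust variance and without scaling between arrays (limma adjusted p = 0.0439 and 0.0121).

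The serotonin receptor list, 14 genes, had 2 members whose KO arrays all lay below the WT arrays, Htr5a and Htr1f, where 2.45% of all genes did so. Htr5a had already passed the threshold over all genes, and the list was chosen with earlier results known, so the count is a description. The list had a median log2 fold change of -0.21, against 0.012 over all genes. The median was -0.10 without KO array 3, -0.36 without KO array 4 and -0.061 with 50 added to each intensity. Htr1f, another inhibitory receptor, read 17.0, 20.5, 21.8 and 19.1 in KO brain and 27.9, 21.9, 33.3 and 39.3 in WT brain (log2 fold change -0.61 ± 0.18). Its highest KO array and lowest WT array nearly met. Htr7, a receptor that stimulates adenylyl cyclase and the brightest of the list, averaged 1164 ± 129 in KO and 1148 ± 81.8 in WT brain, and the ion channel subunit Htr3a 199.8 ± 52.8 in KO and 154 ± 20.9 in WT brain (SD, n = 4 each). Htr2c averaged 661 ± 141 in KO and 893 ± 131 in WT brain, and Htr2a 123 ± 15.9 in KO and 152 ± 12.9 in WT brain (SD, n = 4 each), and these 4 had overlapping arrays. Of the remaining 8, Htr4 (-0.42 ± 0.19), Htr5b (-0.50 ± 0.25), Htr2b (-0.39 ± 0.40) and Htr1a (-0.11 ± 0.24) had log2 fold changes below 0 and Htr1d (0.13 ± 0.11) above it. Htr1b (-0.046 ± 0.41), Htr6 (-0.052 ± 0.20) and Htr3b (0.12 ± 0.13) changed sign under another scaling of the arrays, and the arrays of these 8 overlapped. All of these apart from Htr5a missed the threshold (limma adjusted p = 0.580 to 0.967).

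The olfactory receptor gene Olfr874 read 9.07, 10.1, 7.38 and 8.96 in KO brain, against 3.45, 2.50, 3.15 and 2.71 in WT brain. The WT values lay at the floor. It rose by 1.59 ± 0.14 on the log2 scale (n = 4 arrays each, limma adjusted p = 0.0243), a size limited by the floor, and its second probe read at the floor in both genotypes, with a log2 fold change of 0.11. With 50 added to every intensity the log2 fold change was 0.14 (limma adjusted p = 0.789). It passed in 3 of 8 fits that left out 1 array, those without KO array 3, WT array 1 or WT array 2 (limma adjusted p = 0.0379 to 0.128).

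**Figure D1:**
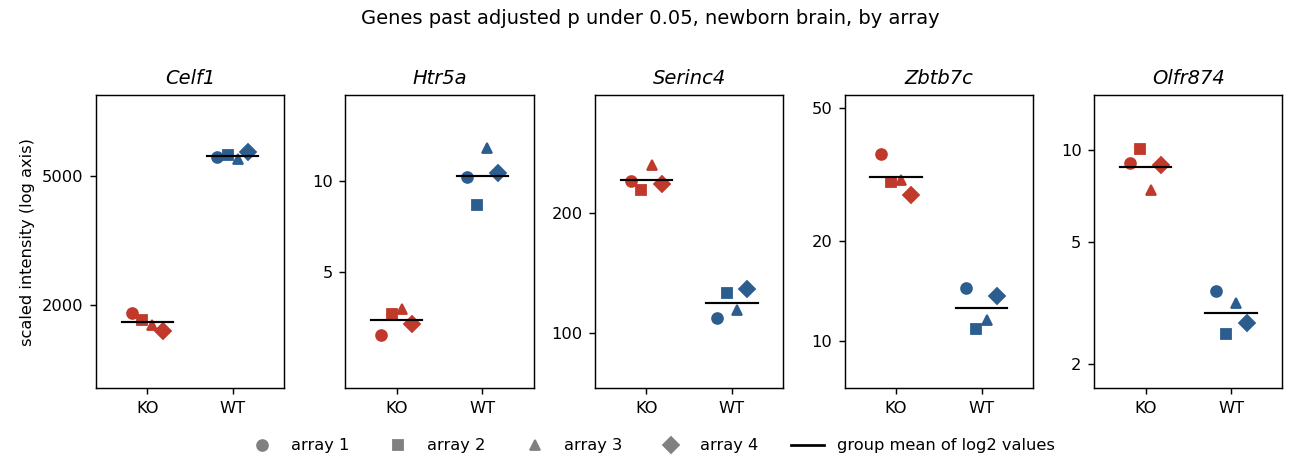
Scaled intensity on a log axis (a different range in each panel) of the 5 genes past the threshold, KO left and WT right, with 1 symbol per array and a bar at the mean of the log2 values (n = 4 arrays each). In each panel the KO and WT arrays are separate, and Htr5a in KO and Olfr874 in WT lie near the floor of 2.44 to 3.57.

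Interferon-stimulated genes stood below WT levels in KO brain without passing the threshold over all genes. Type I interferons bind a receptor on nearly every cell, which activates STAT proteins and IRF9, and this complex switches on genes by binding the interferon-stimulated response element (ISRE) in their promoters. The products block viral entry, translation and replication, and microglia, astrocytes, endothelium and neurons can all make them. In the brain many are present at a low level without infection.

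The 3 promoters below are shown because they belong to effector genes described next and hold the ISRE. Each is a 300-base window, from 250 bases before to 50 after the transcript start, given 5′ to 3′ on the strand of the gene, from RefSeq on GRCm38.p6. Capitals mark every match of the motif GAAA, any 2 bases, GAAA, searched on both strands, with overlapping matches run together. The window of Isg15 (chr4:156200769-156201068, minus strand) holds 3 matches, that of Oas1a (chr5:120907476-120907775, minus strand) 2 and that of Bst2 (chr8:71537423-71537722, minus strand) 2.
Isg15: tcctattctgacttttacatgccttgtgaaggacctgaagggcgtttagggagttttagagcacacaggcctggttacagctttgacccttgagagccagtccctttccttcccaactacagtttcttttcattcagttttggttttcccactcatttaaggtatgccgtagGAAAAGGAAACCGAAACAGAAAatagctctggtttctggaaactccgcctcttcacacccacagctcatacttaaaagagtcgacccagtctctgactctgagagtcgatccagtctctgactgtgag
Oas1a: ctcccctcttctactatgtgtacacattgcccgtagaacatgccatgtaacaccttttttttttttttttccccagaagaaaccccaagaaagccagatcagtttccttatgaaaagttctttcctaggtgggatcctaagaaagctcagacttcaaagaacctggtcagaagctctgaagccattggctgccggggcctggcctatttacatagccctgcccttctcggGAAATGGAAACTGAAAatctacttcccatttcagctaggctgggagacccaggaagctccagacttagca
Bst2: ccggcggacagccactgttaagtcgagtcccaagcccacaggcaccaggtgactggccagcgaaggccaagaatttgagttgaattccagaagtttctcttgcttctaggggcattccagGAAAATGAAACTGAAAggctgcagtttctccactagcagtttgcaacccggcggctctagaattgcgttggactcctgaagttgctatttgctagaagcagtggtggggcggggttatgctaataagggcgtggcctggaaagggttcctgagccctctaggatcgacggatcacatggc
Among the interferon effectors, 31 of 41 genes had a window in the table, and 16 of these (51.6%) held a match. For the interferon-induced GTPases it was 8 of 9 (88.9%), and for all 27025 windows 3.99%. A match is a description of the letters, and Oasl1, Oasl2 and Xaf1 had no match in their windows.

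The effector list held 41 measured genes, of which 32 had a log2 fold change below 0. The KO arrays were all lower than the WT arrays in 16 of them and all higher in 0, where 2.45% and 1.41% of all genes did so. At unadjusted p under 0.05 in limma 20 were lower and 0 higher, against 5.22% and 3.13% of all genes. The list median was -0.47, with members from -1.51 to 0.68, and over all genes the median was 0.012. None of the 41 passed an adjusted p under 0.05.

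Isg15, a ubiquitin-like protein that is attached to other proteins, read 695, 728, 634 and 611 in KO brain, against 1319, 1170, 1253 and 1104 in WT brain. Every KO array lay well below every WT array. Its log2 fold change was -0.86 ± 0.10 (SE, n = 4 arrays each, limma adjusted p = 0.0570), and its other probe gave -1.20. Oas1a, a synthetase of oligoadenylates that activate RNase L, read 88.6, 94.8, 111 and 85.4 in KO brain, against 270.3, 225, 225 and 182 in WT brain. The groups were again separate, at a log2 fold change of -1.24 ± 0.14 (limma adjusted p = 0.0570) and of -0.78 for its other probe. Probes of the Oas1 genes can read near-identical copies.

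Oasl1, a relative of the synthetases that lacks their enzyme activity, read 25.3, 30.0, 25.8 and 33.5 in KO brain, against 60.8, 73.3, 60.6 and 56.8 in WT brain (log2 fold change -1.14 ± 0.13, limma adjusted p = 0.0570). Mx2, a dynamin-like antiviral GTPase, read 43.8, 54.3, 40.6 and 41 in KO brain, against 86.3, 88.6, 99.2 and 115 in WT brain (-1.11 ± 0.14, limma adjusted p = 0.0667). Neither gene overlapped between genotypes. Oasl2 averaged 94.1 ± 21.5 in KO and 211 ± 23.9 in WT brain, and Oas2 35.5 ± 6.83 in KO and 65.9 ± 9.65 in WT brain (SD, n = 4 each), and both were separated by genotype.

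Membrane and RNA-acting effectors gave like values. Bst2, or tetherin, which holds budding virions at the cell surface, read 705, 684, 637 and 482 in KO brain, against 1049, 1044, 1166 and 938 in WT brain (log2 fold change -0.75 ± 0.14). Ifitm3, which blocks fusion of viruses in endosomes, averaged 602 ± 66.1 in KO and 882 ± 58.2 in WT brain. Rtp4 averaged 331 ± 42.1 in KO and 620.1 ± 88.6 in WT brain, and Ifi27 1689 ± 134 in KO and 2620 ± 448 in WT brain (SD, n = 4 each). All 4 of these genes were separated by genotype.

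Ifit3, one of a family that binds foreign RNA, averaged 42.5 ± 11.5 in KO and 71.9 ± 4 in WT brain. Cmpk2, a mitochondrial nucleotide kinase induced by interferon, averaged 332 ± 18.2 in KO and 442 ± 40.5 in WT brain, and Parp14, an ADP-ribosyltransferase, 58.6 ± 6.36 in KO and 115 ± 18.8 in WT brain. Xaf1 averaged 70.4 ± 3.54 in KO and 136 ± 25.9 in WT brain, and Trim30a 8.80 ± 3.25 in KO and 24.4 ± 5.98 in WT brain (SD, n = 4 each). These 5 were likewise separated by genotype, at adjusted p of 0.162 to 0.580 in limma. Phf11d, an interferon-induced gene of the same kind outside the list, read between 13 and 19.5 in KO brain and between 29.7 and 42.3 in WT brain (-1.10 ± 0.16).

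**Figure D2:**
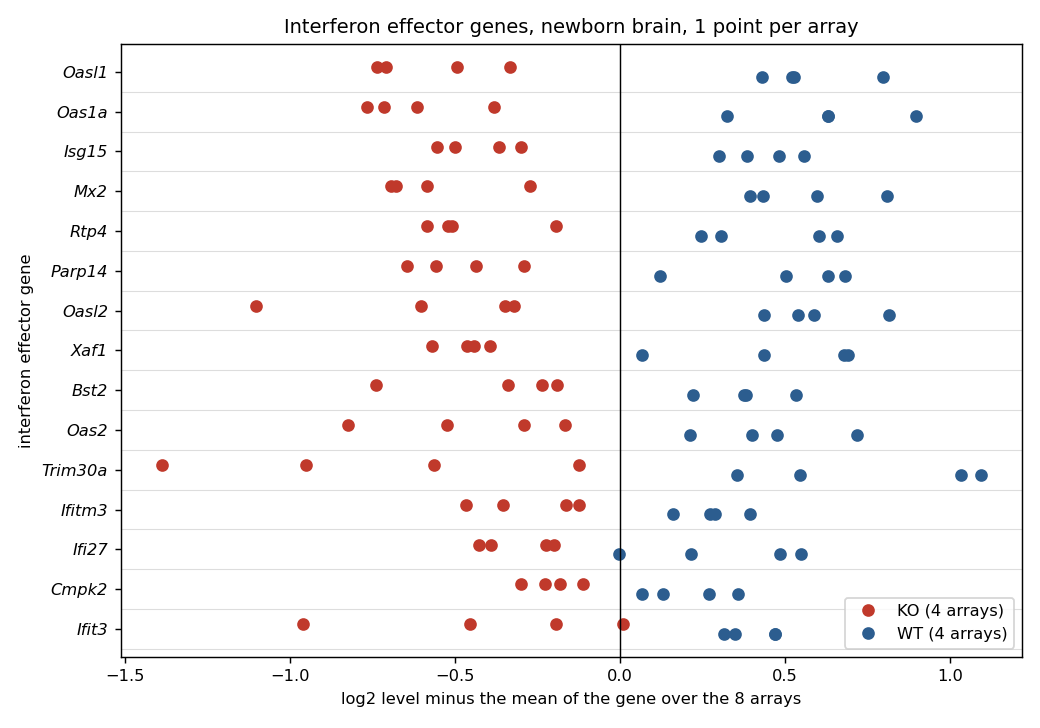
Log2 level relative to the mean of the gene on the 8 arrays (x axis) for the 15 effector genes with the smallest p, 1 point per array, KO above WT in each row. In all 15 rows the 4 KO points lie left of the 4 WT points. The genes shown were chosen by p, so the separation is a description.

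Of the interferon signalling genes, 3 were separated by genotype, all lower in KO brain. Usp18, which cleaves Isg15 from proteins and damps the receptor, read 50, 59.6, 31.2 and 39.2 in KO brain, against 125, 104, 106 and 98.6 in WT brain (log2 fold change -1.31 ± 0.20, limma adjusted p = 0.162). Irf7, the factor that amplifies interferon production, read 22.4, 27.8, 16.8 and 10.9 in KO brain, against 39.8, 45.2, 47.1 and 45.4 in WT brain (-1.27 ± 0.27). The last was Myd88, an adaptor of Toll-like receptors (-0.32 ± 0.099). The list held 18 genes, with 0 higher on all KO arrays and a median of -0.18. Of all genes, 2.45% were lower and 1.41% higher on all KO arrays.

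Of 13 sensors of foreign nucleic acid, 3 lay lower on all KO arrays and 0 higher, against 2.45% and 1.41% of all genes. The list median was -0.090. Ifih1, or MDA5, averaged 61.1 ± 10.3 in KO and 93.4 ± 9.68 in WT brain, and Ddx58, or RIG-I, 200.5 ± 9.09 in KO and 259.5 ± 12.8 in WT brain (SD, n = 4 each). Zbp1, a sensor of Z-form nucleic acid, was dim, at 5.19, 3.85, 13.1 and 12.4 in KO and 27.5, 14, 15.2 and 14.2 in WT brain. Its KO arrays 3 and 4 came close to the lower WT arrays.

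The ligands and receptors of the pathway are given for comparison. The 10 interferon ligand genes had a median of 0.16, with 9 above 0, and most were dim. Ifna12 read 34.9, 40.9, 38.3 and 39.8 in KO brain, against 30.4, 23.7, 29.7 and 31.5 in WT brain (log2 fold change 0.42 ± 0.12), so that its arrays were separate but in the opposite direction to the effectors. The mean of all its probes gave -0.031. The 6 receptor genes had a median of 0.023, between -0.12 and 0.12, and none was separated by genotype.

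Among the interferon-induced GTPases, which attack the membranes around intracellular microbes, 4 of 13 lay lower on all KO arrays and 0 higher. Over all genes the shares were 2.45% and 1.41%. Gbp7 averaged 40.8 ± 4.25 in KO and 60.3 ± 2.81 in WT brain, Irgm1 113 ± 14.8 in KO and 164 ± 17.3 in WT brain, and Igtp 132 ± 7.83 in KO and 173 ± 22.2 in WT brain (SD, n = 4 each). Gbp2, chosen after its values were seen, averaged 45.9 ± 11.6 in KO and 65.6 ± 10.9 in WT brain (-0.54 ± 0.22). The list median was -0.32, and over the GTPases above the median level of all genes it was 0.11.

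In the MHC class I list, which covers the molecules that present peptides and the proteasome subunits that cut them, 3 of 17 genes lay lower on all KO arrays. Of all genes 2.45% did so. The immunoproteasome subunit Psmb9 read 96.5, 127, 87.1 and 109 in KO brain, against 159, 163, 208 and 189 in WT brain (log2 fold change -0.78 ± 0.15). Psmb8, another subunit, averaged 103 ± 15.9 in KO and 166 ± 41.9 in WT brain (SD, n = 4 each). B2m, the light chain of class I molecules, read 934, 959, 995 and 954 in KO brain, against 1067, 1194, 1633 and 1449 in WT brain, with WT arrays 3 and 4 highest. The list median was -0.23, and -0.053 without WT arrays 3 and 4. The p200 family (median -0.00063) and MHC class II genes (median -0.19) had 0 separated members.

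As a level per array, taken as the median member's log2 level relative to its own mean on the 8 arrays, the effectors stood at -0.35, -0.13, -0.22 and -0.29 in KO brain and at 0.27, 0.21, 0.35 and 0.24 in WT brain. All 4 WT arrays lay above all 4 KO arrays, WT arrays 1 and 2 included. Without WT arrays 3 and 4 the effector median was -0.42. Microglia and macrophage genes, of cells that express many interferon-induced genes, stood at -0.16 to -0.029 in KO brain and at -0.15, 0.21, 0.21 and 0.15 in WT brain (21 genes, 15 below 0, median -0.25). WT array 1 thus lay within the KO range for that list and above it for the effectors. In whole brain, fewer cells of a type and less RNA per cell cannot be told apart.

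Distal chromosome 2 held the densest run of genes that were separated by genotype, in both directions. Celf1 lies on this chromosome, and ES-cell-derived mice can keep DNA of the ES cell strain around a targeted gene. Along each chromosome the measured genes were divided in order into 425 runs of 50. In the run from BC052040 to Nusap1, 17 of 50 genes were separated (8 higher, 9 lower), and in the next run, from Ndufaf1 to Wdr76, 9 were (7 higher, 2 lower). The median run had 2, and the highest count elsewhere was 8, on chromosome 5. These runs were singled out after their values were seen, and carry no test.

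Over both runs, 26 of 100 genes were separated, 15 higher and 11 lower, against 3.94% of the other 1727 genes of chromosome 2 and 3.85% of all genes. The median log2 fold change of the 100 genes was -0.0037. The median size of the change was 0.28, against 0.16 over all genes. At unadjusted p under 0.05 in limma, 32 of the 100 were counted, and 20 without WT arrays 3 and 4, where 8.35% and 3.58% of all genes were. Celf1 lies 183 measured genes before the first of these runs.

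Pak6, a kinase of the p21-activated group found in neurons, read 611, 637, 604 and 990.1 in KO brain, against 1800, 1967, 1806 and 1873 in WT brain. KO array 4 was the highest of its group and still far below the WT arrays. Its log2 fold change was -1.42 ± 0.17 (SE, n = 4 arrays each, limma adjusted p = 0.0570). Disp2, a homologue of the protein that releases Hedgehog ligands, read 2246, 2596, 2317 and 3038 in KO brain, against 4962, 4124, 4941 and 4884 in WT brain (-0.90 ± 0.13, limma adjusted p = 0.123). The groups were again separate.

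In the other direction, Chst14, a sulfotransferase that builds dermatan sulfate, read 275, 232, 259 and 166 in KO brain, against 96.1, 132, 97.6 and 89.2 in WT brain (log2 fold change 1.16 ± 0.19, limma adjusted p = 0.194). Dnajc17, a co-chaperone of the DnaJ family, averaged 921 ± 100 in KO and 569 ± 39.6 in WT brain. Mfap1a, a spliceosome component, averaged 954 ± 119.6 in KO and 566 ± 25 in WT brain (SD, n = 4 each). For all of these the KO arrays lay above the WT arrays. The probe of Mfap1a may also read its near-identical copy, Mfap1b.

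Serinc4 lies in the second run. Of the 50 measured genes nearest to it, 25 on each side, 6 were higher and 1 lower on all KO arrays, 14% of them. Hypk, a chaperone partner of the N-terminal acetyltransferase, averaged 1888 ± 137 in KO and 1500 ± 168 in WT brain. Spg11, the spatacsin gene of hereditary spastic paraplegia, averaged 1921 ± 199 in KO and 1505 ± 80.3 in WT brain (SD, n = 4 each). Golm2, a Golgi membrane protein, read 1600.1, 1422, 1773 and 1846 in KO brain, against 551, 1248, 982 and 1007 in WT brain (log2 fold change 0.86 ± 0.24), with WT array 1 far below the others. Zscan29 (0.49 ± 0.17) and the elongation factor gene Ell3 (0.83 ± 0.31) also stood higher, and the 1 lower gene was B2m, which is a member of the MHC class I list as well.

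Of the remaining genes there, chosen after their values were seen, BC052040 stood at -0.98 ± 0.16, Gm14207 at -1.28 ± 0.29, Oip5os1, a long noncoding RNA also called Cyrano, at -0.88 ± 0.14 and Rpap1, a factor linked to RNA polymerase II, at -0.39 ± 0.084. Pla2g4e, a phospholipase, stood at 0.75 ± 0.17. Beyond the second run, Sqor, a mitochondrial sulfide oxidase also chosen after its values were seen, read 67.3, 144, 96.7 and 133 in KO brain, against 265, 269, 275 and 306 in WT brain (-1.40 ± 0.23, limma adjusted p = 0.194). Fam227b, a gene of unassigned function, read 46.7, 49.7, 65.2 and 24.4 in KO brain, against 7.33, 16, 6.54 and 17.6 in WT brain (2.02 ± 0.42, limma adjusted p = 0.398).

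Around Celf1 itself, 1 of the 50 nearest measured genes was higher and 0 lower on all KO arrays (2.00%), against 3.85% of all genes in either direction. At unadjusted p under 0.05 in limma 0 of the 50 were higher and 3 lower, against 3.13% and 5.22% of all genes. Olfactory receptor genes made up 16 of the 50. The 1 was Fnbp4, at 509.8, 427, 439 and 441 in KO brain against 378, 419, 383 and 396 in WT brain (log2 fold change 0.20 ± 0.093, limma adjusted p = 0.580), where KO array 2 almost met WT array 2. The median of the 50 was 0.0090. Differences that came with ES cell DNA around the trap and effects of the trap itself cannot be told apart in this design, and sequence differences under the probes were not tested.

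**Figure D3:**
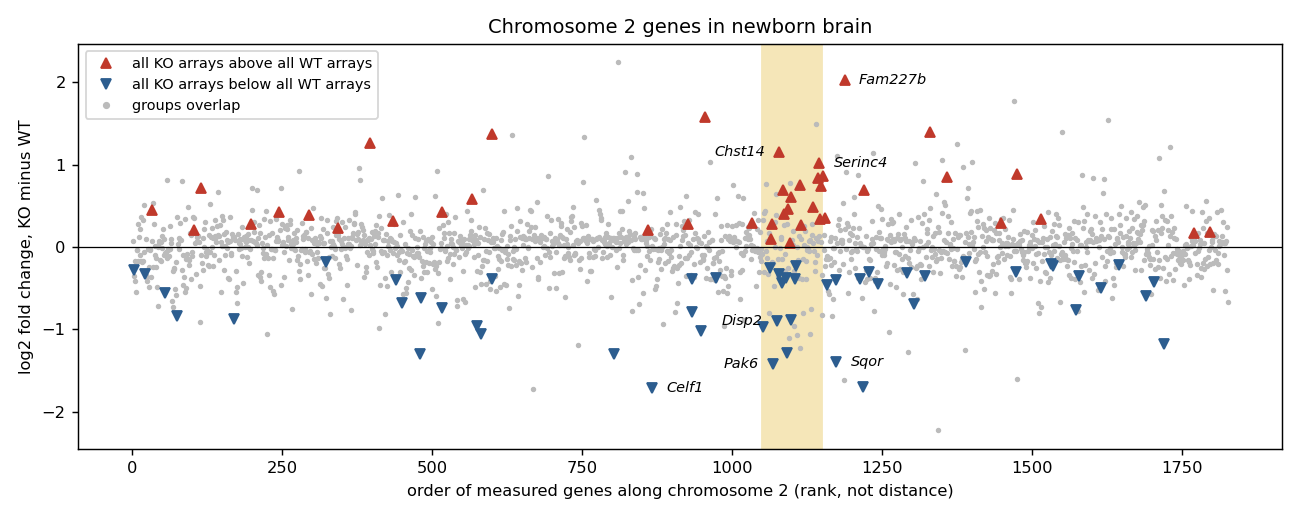
Log2 fold change, KO minus WT, of the 1827 measured genes of chromosome 2 in their order (x axis, rank and not distance), with triangles for genes whose KO and WT arrays do not overlap and shading over the 100 genes from BC052040 to Wdr76. Triangles in both directions crowd the shaded range, which holds 26 of them, and Celf1 stands low outside it.

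Hypoxia genes stood lower in KO brain in the median, with high readings on WT arrays 3 and 4. When oxygen falls, the HIF transcription factors escape the prolyl hydroxylases that mark them for destruction and switch on genes for glycolysis, vessel growth and pH control. Of 22 hypoxia genes 20 had a log2 fold change below 0, with a median of -0.67, and without WT arrays 3 and 4 the median was -0.0053. The list level was 1.03 and 1.12 on WT arrays 3 and 4, against -0.11 and -0.46 on WT arrays 1 and 2. The KO arrays, at -0.17, -0.45, -0.17 and -0.52, lay in the range of WT arrays 1 and 2 or near it.

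Car9 encodes the carbonic anhydrase that acidifies the outside of hypoxic cells, and its promoter is shown for the motif that HIF binds. The window (chr4:43506776-43507075, plus strand, RefSeq on GRCm38.p6) runs from 250 bases before to 50 after the start, 5′ to 3′. Capitals mark the 1 match of ACGTG or GCGTG on either strand.
Car9: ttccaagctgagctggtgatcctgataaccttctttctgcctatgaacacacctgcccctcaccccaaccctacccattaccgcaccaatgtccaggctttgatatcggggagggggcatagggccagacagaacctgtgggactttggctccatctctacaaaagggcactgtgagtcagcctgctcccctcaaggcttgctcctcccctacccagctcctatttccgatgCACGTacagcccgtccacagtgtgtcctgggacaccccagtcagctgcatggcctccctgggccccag
Such a match occurred in 17 of 17 windows of hypoxia genes, in 15 of 17 of glycolysis genes (88.2%) and in 46.7% of all windows. Car9 read 42.7, 49.7, 44.5 and 46.2 in KO brain, against 57, 63.2, 146 and 175 in WT brain. All WT arrays lay above all KO arrays, 2 of them by a small step and 2 by a large one. The log2 fold change was -1.10 ± 0.36 (SE, n = 4 arrays each, limma adjusted p = 0.580), and -0.39 without WT arrays 3 and 4.

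Slc2a3, the neuronal glucose transporter, read 3609, 3694, 3629 and 3334 in KO brain, against 4135, 3833, 7733 and 8313 in WT brain. With Car9 it made the 2 of 22 hypoxia genes that were separated by genotype. Both were lower on all KO arrays, where 2.45% of all genes were. Vegfa, the growth factor of vessels, read 2626, 1121, 2276 and 1165 in KO brain, against 2522, 1496, 8381 and 8887 in WT brain. Bnip3, a mitochondrial protein that directs mitophagy, read 8699, 8383, 10250 and 9559 in KO brain, against 9868, 8898, 37416 and 39408 in WT brain. In both genes WT arrays 1 and 2 resembled the KO arrays, and WT arrays 3 and 4 stood several-fold higher.

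The prolyl hydroxylase of HIF, Egln3, read 214, 135, 206 and 139 in KO brain, against 242, 182, 618 and 641 in WT brain. The collagen prolyl hydroxylases P4ha1 (log2 fold change -1.55 ± 0.69) and P4ha2 (-0.87 ± 0.36), and the stress gene Ndrg1 (-0.66 ± 0.29), had the same 2 high arrays and overlapping groups. Without WT arrays 3 and 4 the 4 log2 fold changes were -0.31 for Egln3, -0.46 for P4ha1, -0.16 for P4ha2 and -0.17 for Ndrg1.

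All 17 glycolysis genes had a log2 fold change below 0, with a median of -0.46, and 0 were separated by genotype. The list level was -0.18, -0.31, -0.15 and -0.27 in KO brain and -0.055, -0.29, 0.72 and 0.69 in WT brain. Ldha, lactate dehydrogenase, read 64484, 51913, 68650 and 48171 in KO brain, against 71361, 55362, 142841 and 141153 in WT brain. WT arrays 3 and 4 were well above the other 6. Pgk1 (-0.62 ± 0.28), Tpi1 (-0.74 ± 0.34) and Pfkfb3 (-0.71 ± 0.30), which code for steps of the pathway and for its activator, had the same shape, and without WT arrays 3 and 4 the list median was -0.055.

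**Figure D4:**
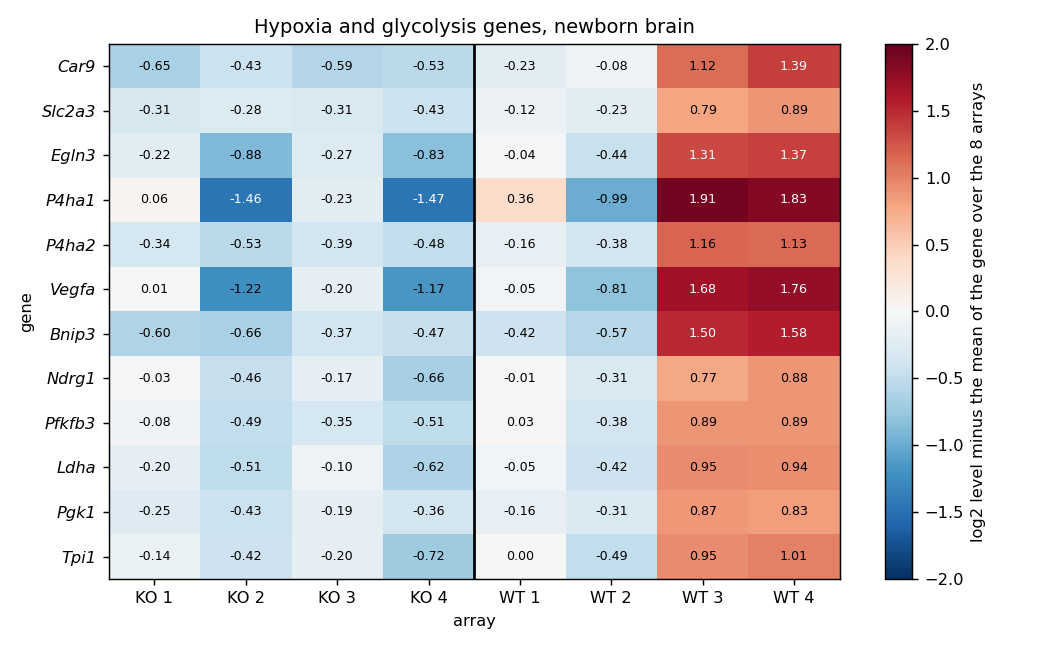
Log2 level relative to the mean of the gene on the 8 arrays, by colour and printed value, for 12 named hypoxia and glycolysis genes (rows) on the 4 KO and 4 WT arrays (columns). WT arrays 3 and 4 are high in all 12 rows. WT arrays 1 and 2 lie closer to the KO arrays, and for Car9 and Slc2a3 they lie above all of them.

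Immediate early genes, switched on within minutes by stimulation or handling, had a median of -0.34 (13 of 15 below 0) and 0.068 without WT arrays 3 and 4. Glucocorticoid-responsive genes had medians of -0.25 and 0.10 with and without these arrays. Both lists had 0 separated members. Genes of oxidative phosphorylation stayed near 0 (17 genes, median 0.072).

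Astrocyte genes had a median of -0.30, with 17 of 18 below 0, and 4 lay lower on all KO arrays, against 2.45% of all genes. Slc1a2, the main glutamate transporter, read 652, 688, 697 and 742 in KO brain, against 961, 819, 1706 and 1540 in WT brain (log2 fold change -0.79 ± 0.24). Aqp4, the water channel of astrocyte endfeet, read 527, 734, 783 and 772 in KO brain, against 819, 847, 1353 and 1136 in WT brain (-0.55 ± 0.20). In both genes every KO array was below every WT array, and WT arrays 3 and 4 were highest. Without those arrays Slc1a2 stood at -0.35, Aqp4 at -0.26 and the list at -0.072.

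Acsbg1, an acyl-CoA synthetase of astrocytes, averaged 2213 ± 136 in KO and 2719 ± 198 in WT brain (SD, n = 4 each) and was also separated. The fourth separated gene, S100b, a calcium-binding protein chosen after its values were seen, averaged 808 ± 124 in KO and 1299 ± 439.6 in WT brain (-0.63 ± 0.25, and -0.20 without WT arrays 3 and 4). Gfap, the intermediate filament of mature astrocytes, read 164, 325, 155 and 264 in KO brain, against 259.8, 380.1, 502 and 455 in WT brain, with overlap (-0.84 ± 0.30). The astrocyte level was 0.37 and 0.39 on WT arrays 3 and 4, and -0.12 and -0.0031 on WT arrays 1 and 2. On the KO arrays it ran from -0.29 to -0.025.

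Markers of other glia and of neurons gave smaller values. Oligodendrocyte lineage genes had a median of -0.13 (14 genes, 6 above 0) and neuronal genes -0.067 (15 genes, 6 above 0). Excitatory neuron genes stood at -0.052 (13 genes, 5 above 0) and inhibitory neuron genes at -0.011 (13 genes, 6 above 0). The neuronal and excitatory medians were above 0 when arrays were scaled to the median, at 0.0031 and 0.018. Gpr17, a receptor of committed oligodendrocyte precursors, read 3441, 3627, 2871 and 3034 in KO brain, against 4052, 4501, 6228 and 5800.0 in WT brain (log2 fold change -0.65 ± 0.16). The excitatory markers Slc17a7, a vesicular glutamate transporter (-0.81 ± 0.24), and Camk2a, a synaptic kinase (-0.68 ± 0.21), were also lower on all KO arrays, and the 3 values were -0.40, -0.46 and -0.43 without WT arrays 3 and 4. They made 1 of 14 oligodendrocyte lineage and 2 of 13 excitatory genes, where 2.45% of all genes were lower on all KO arrays. Radial glia and progenitor genes stood at 0.0055 (12 genes). Genes of intermediate progenitors and new neurons had a median of 0.27, with 10 of 11 above 0 and 0 separated, and 0.069 without WT arrays 3 and 4.

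Cell cycle genes had a median of 0.16, with 29 of 35 above 0 and 0 separated by genotype, where 3.85% of all genes were. At unadjusted p under 0.05 in limma 2 of the 35 were higher, against 3.13% of all genes. The list level was 0.26, 0.016, 0.18 and -0.049 in KO brain and 0.20, -0.019, -0.21 and -0.24 in WT brain, lowest on WT arrays 3 and 4. Without those arrays the median was 0.018. Kif15, a spindle kinesin outside that list, read 31.7, 27.4, 41 and 26 in KO brain, against 19.6, 15.6, 16.4 and 18.3 in WT brain (log2 fold change 0.83 ± 0.16, limma adjusted p = 0.367), with separate groups.

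Markers of blood cells and of tissue outside the brain were read in the same samples. Neutrophil genes had a median of -0.81 (14 of 17 below 0), and 2 lay lower on all KO arrays, against 2.45% of all genes. Ngp, a granule protein, read 12, 17.6, 11 and 7.01 in KO brain, against 21.7, 27, 71 and 26.2 in WT brain, and Retnlg read between 3.57 and 11.6 in KO brain and between 13.4 and 26.2 in WT brain. The list level was -0.60, -0.054, -0.29 and -0.44 in KO brain and -0.18, -0.19, 0.99 and 0.47 in WT brain, again highest on WT arrays 3 and 4. Its median was -0.33 without them, and its part in the lower interferon genes was not tested.

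The chemokine and NF-kappaB list had a median of -0.12 over 17 genes and 0 separated members. Its members ran from -1.65 to 0.93, with 11 below 0 and 6 above. Over its genes above the median level of all genes the median was 0.027. Ccl5, a chemokine for T cells that interferon also induces, read 13.6, 8.20, 18.3 and 14 in KO brain, against 18.1, 68.1, 50.2 and 38.8 in WT brain. Icam1, an adhesion molecule for leukocytes, averaged 12.9 ± 6.81 in KO and 36.5 ± 19.6 in WT brain (SD, n = 4 each). In each gene 1 KO array reached above the lowest WT array.

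The alpha globin gene Hba-a1 read 119176, 102671, 151660 and 111690 in KO brain, against 85916, 73827, 98508 and 70716 in WT brain (log2 fold change 0.56 ± 0.16). It was the 1 of 12 erythroid genes that was separated, where 1.41% of all genes were higher on all KO arrays. The probe of Hba-a1 may read the identical Hba-a2. Hbb-y, the embryonic beta-like globin, averaged 57.6 ± 19.6 in KO and 25.4 ± 7.98 in WT brain (SD, n = 4 each). KO array 4, at 29.4, lay below WT array 4, at 36.4. The erythroid list had a median of 0.14, with 8 of 12 genes above 0 and 4 below, down to -0.94.

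Skeletal muscle genes had a median log2 fold change of -0.35 (16 of 19 below 0). Their level was -0.11, -0.31, -0.17 and -0.20 in KO brain and 0.19, 0.78, -0.048 and -0.10 in WT brain, highest on WT array 2. All 4 WT arrays lay above all 4 KO arrays for this list too, by a narrow gap between KO array 1 and WT array 4. Tnni2, the fast troponin inhibitor, read 361, 187, 191 and 154 in KO brain, against 481, 665, 360.4 and 303 in WT brain (log2 fold change -1.03 ± 0.32). Myh4, a fast myosin, read between 14.9 and 22.4 in KO brain and between 21.1 and 30.9 in WT brain. Both overlapped between genotypes. The 1 separated gene was Tnnt3, a fast troponin chosen after its values were seen, at 102 ± 5.15 in KO and 151 ± 60.3 in WT brain (SD, n = 4 each). This was 1 of 19 muscle genes, beside 2.45% of all genes that were lower on all KO arrays.

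**Figure D5:**
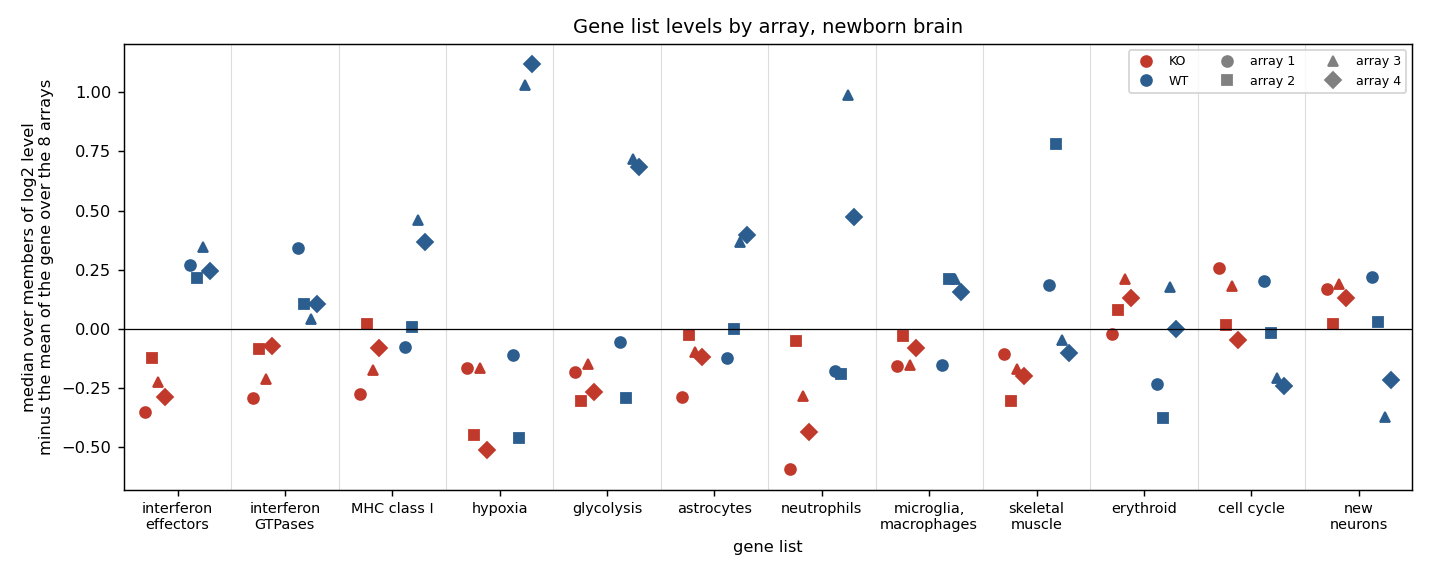
Level of 12 gene lists on each array, the median member's log2 level relative to its own mean (y axis), KO left of WT within each list and 1 symbol per array number. The 4 WT arrays of the interferon effectors lie together at 0.21 to 0.35, whereas for hypoxia, glycolysis, astrocytes and neutrophils WT arrays 3 and 4 stand apart from WT arrays 1 and 2. For skeletal muscle the WT arrays also lie above the KO arrays, by a narrow gap.

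Apart from Celf1, no member of the CELF family was separated by genotype. Celf2, the closest relative of Celf1, averaged 29958 ± 1999 in KO and 28392 ± 699 in WT brain (SD, n = 4 each; log2 fold change 0.075 ± 0.086, limma adjusted p = 0.757). Celf3 stood at 0.23 ± 0.16, Celf4 at -0.24 ± 0.11, Celf5 at 0.0060 ± 0.097 and Celf6 at -0.11 ± 0.14, and all 5 overlapped between genotypes.

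In the list of 12 neuronal RNA-binding proteins the median was 0.057, and 1 gene was separated, where 3.85% of all genes were. At unadjusted p under 0.05 in limma, 2 of the 12 were higher and 1 lower, against 3.13% and 5.22% of all genes. Ptbp2, a splicing repressor of immature neurons, read 919, 919, 1038 and 1068 in KO brain, against 712, 911, 763 and 797 in WT brain (log2 fold change 0.31 ± 0.11). WT array 2 nearly reached the lowest KO arrays. Nova1 (0.39 ± 0.15) and Nova2 (-0.44 ± 0.17), paired splicing regulators of neurons, stood in opposite directions and overlapped. The Mbnl and Rbfox list had a median of -0.044 over 6 genes, which was 0.026 when arrays were scaled to the median, with Mbnl3 at 0.73 ± 0.27 from dim readings.

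The 18 reported CUGBP1 targets had a median of -0.075, which was -0.0042 when arrays were scaled to the median. Of them, 1 lay lower on all KO arrays and 0 higher, against 2.45% and 1.41% of all genes. The 1 was Ppp3ca, the catalytic subunit of calcineurin, which read 13791, 13859, 14430 and 14506 in KO brain, against 14673, 15365, 16892 and 16525 in WT brain (log2 fold change -0.16 ± 0.086). The groups were separate by a narrow gap. Cebpa, whose translation CUGBP1 is known to regulate, averaged 61.0 ± 9.55 in KO and 78.0 ± 10.2 in WT brain (SD, n = 4 each; log2 fold change -0.36 ± 0.14), with overlap. Protein levels were not measured.

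Outside the lists, the genes with the smallest p whose arrays were separated included dim immune genes among those lower in KO. Cd72, a B cell co-receptor, read 25.9, 23.6, 25.8 and 24.1 in KO brain, against 36.3, 42.8, 39.7 and 39.7 in WT brain (log2 fold change -0.67 ± 0.089, limma adjusted p = 0.0980). Hcar2, a receptor for nicotinate and ketone bodies on myeloid cells, read between 2.99 and 3.71 in KO brain and between 6.31 and 9.72 in WT brain (-1.30 ± 0.16, limma adjusted p = 0.0655). Bcl2a1c (-1.66 ± 0.23) and the ectoenzyme gene Bst1 (-1.59 ± 0.23) were likewise at the floor in KO, so the sizes of these 3 changes are limited by it.

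Among those higher in KO, Arhgap12, a GTPase-activating protein of excitatory synapses, read 1636, 1747, 2031 and 1865 in KO brain, against 1139, 1221, 1188 and 1194 in WT brain. All KO arrays exceeded all WT arrays at a bright signal (log2 fold change 0.61 ± 0.095, limma adjusted p = 0.162). Irx4, a homeobox gene, averaged 178 ± 5.89 in KO and 110.1 ± 14.3 in WT brain, and Tgfbrap1, a trafficking adaptor, 147 ± 7.64 in KO and 105 ± 6.71 in WT brain (SD, n = 4 each). Flt4, the receptor of lymphatic endothelium, was dim, at between 12 and 21.2 in KO brain and between 3.86 and 9.08 in WT brain (1.40 ± 0.28). Adamts7, Obox1, Sfta3-ps and Taar7d stood at 0.64 to 1.23, and all were separated by genotype.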

How the data were processed

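RNA of newborn brain was labelled with Cy3 and hybridised to 1-colour Agilent arrays, 4 of KO and 4 of WT brain. The deposited values are linear intensities from Agilent Feature Extraction, per the submitters' processing notes; its version and any later step are not given in the sources used here, and no detection flags were used. The table held 55681 probes, of which 30626 had 1 gene symbol, 0 several and 25055 none, and 53 brain cells were blank. Symbols were updated and genes ordered with RefSeq GRCm38.p6 (30332 probes matched), and 21893 genes were kept, each by its brightest probe over 14 arrays. From these values the log2 intensity minus the array's 75th percentile was computed and compared by limma 3.58.1 in R 4.3.3 (lmFit and eBayes, 2-sided, no block, Benjamini-Hochberg over all genes), a design checked on simulated data. The labels do not say whether equal array numbers mark pairs, so no pairing was used.

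Members, gene lists (44, with 617 of 643 entries measured) and tests were chosen with earlier results of these data known, so lists carry no p-value. Names were drawn from Celf1 and genes past adjusted p under 0.05; the 15 higher and 15 lower genes with the smallest p and separated arrays, without receptor clusters and predicted genes; up to 4 members per list (15 effectors, 8 hypoxia genes, all CELF, Serinc and serotonin receptor genes); and separated neighbours of Celf1 and Serinc4. Other genes are marked. Alternatives changed scaling, probe choice, filter, offset, variance model, weights, block and arrays. The number of arrays limits the precision.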

Additional observations from a re-analysis of the deposited data

Results flagged for a closer look

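In 278 groups of 4 arrays, 11 held 1 array far from the other 3 by Dixon's ratio of gap to range, where chance gives about 1 in 20. The count was thus no higher than chance gives, and the cases below are descriptions. WT array 2 was that array in 6 of them. It was highest for Irgm1 (ratio 0.833, scaled intensity 190.0 against 152 to 158 on the others) and for Nova1 (ratio 0.903, 409 against 273 to 284). It was lowest for Disp2 (ratio 0.915, 4124 against 4884 to 4962), for Spg11 (ratio 0.858, 1386 against 1535 to 1562), for Nova2 (ratio 0.859, 2202 against 2713 to 2807) and for Htr2a (ratio 0.854, 133 against 156 to 160.5). WT array 1 was highest for the sensor gene Zbp1 (ratio 0.883, 27.5 against 14 to 15.2) and lowest for the level of the microglia and macrophage list (ratio 0.842, -0.15 against 0.15 to 0.21). KO array 4 was highest for Pak6 (ratio 0.893, 990.1 against 604 to 637), and KO array 1 was lowest for Aqp4 (ratio 0.837, 527 against 734 to 783) and for S100b (ratio 0.899, 623 against 855 to 886). Apart from Nova1, Nova2, Htr2a and the microglia list, the KO and WT arrays of these did not overlap.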

How the results depend on the processing

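The count of 5 genes past the threshold in limma was 0 with the array number as a replicate block (1656 genes at unadjusted p under 0.05), 0 when WT arrays 3 and 4 were both dropped (784 genes unadjusted), 3 for genes above the median level, 3 without scaling between arrays and 2158 with array weights (862 higher, 1296 lower), where WT arrays 1 and 2 had weights of 0.40 and 0.34 and WT array 3 one of 2.99. Leaving out 1 array gave 1 to 9 genes, the lowest without KO array 2, WT array 3 or WT array 4 and the highest without WT array 2. The log2 fold change of Celf1 was -1.71 with the replicate block (limma adjusted p = 0.230) and -1.71 without WT arrays 3 and 4 (limma adjusted p = 0.0800), where fewer arrays or degrees of freedom were left. Deviations of equally numbered KO and WT arrays correlated at -0.045 to 0.10, and those of unequally numbered arrays at -0.11 to 0.062. With so few arrays these values cannot settle whether equal numbers mark pairs. The interferon effector median was -0.25 with 50 added to each intensity, which shrinks changes of dim genes, and -0.43 to -0.59 without 1 array, the last without KO array 3. The hypoxia median was -0.0053 without WT arrays 3 and 4. Ifna12 stood at -0.031 and Celf5 at -0.13 with the mean of its probes. Celf5, near 0 throughout, also stood at -0.014 with quantile normalization, at -0.052 with WT arrays 3 and 4 dropped, where Celf6 stood at 0.11 and Serinc5 at 0.12, and at -0.030 to 0.060 without 1 array. Htr1b stood at 0.024 when scaled to the median, at 0.41 with array weights and at -0.37 to 0.27 without 1 array. Htr6 stood at 0.019 when scaled to the median, at 0.027 with quantile normalization, at 0.22 without WT arrays 3 and 4 and at -0.23 to 0.091 without 1 array. Htr3b stood at -0.010 with 50 added and at -0.0032 with quantile normalization, and Htr7 at -0.019 without WT arrays 3 and 4 and at -0.054 to 0.064 without 1 array. The causes of these sign changes were not tested. Leaving out 1 array, the median of the interferon signalling genes ran from -0.28 to -0.11, of the sensors from -0.20 to -0.081, of the GTPases from -0.43 to -0.20 and of the MHC class I list from -0.40 to -0.11. Among 44 lists, 12 medians changed sign without WT arrays 3 and 4, 5 of 42 for genes above the median level and 6 when scaled to the median. For the interferon ligands and the p200 family, the filter left no member.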

Other observations

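The lists of other cell types, brain regions and stress responses gave the values that follow. Endothelial genes had a median log2 fold change of 0.0049 (14 genes), genes of the meninges 0.055 (12), monoamine neurons -0.11 (10), and choroid plexus and ependyma -0.082 (11). Separated and lower in KO were 2 of the choroid plexus and ependyma genes, Kl, a co-receptor of FGF23 (-0.73 ± 0.20), and Tmem212 (-1.44 ± 0.50). Of all genes 2.45% were lower on all KO arrays. Pericyte genes had a median of -0.21 (9 of 10 below 0), and 0.038 without WT arrays 3 and 4. The 1 separated pericyte gene was Rgs5, a regulator of G protein signalling, at 639.5 ± 95.4 in KO and 1004 ± 175 in WT brain (SD, n = 4 each). Genes of the integrated stress and unfolded protein responses stood at -0.090 (14 genes), and genes of fatty acid and ketone metabolism at -0.14 (11). Markers of hindbrain and cerebellum stood at 0.17 (12 genes) and of forebrain at 0.21 (11 genes). Pituitary and hypothalamus genes had a median of -0.19, and 0.30 without WT array 4.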
